A study of Mus musculus with 11 samples.

Results

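Gene expression was followed through adipocyte differentiation of 3T3-L1 cells that carried a non-target shRNA, a short hairpin RNA meant to match no mouse transcript. The samples were chosen by their titles, which give 3 arrays of control adipocytes labelled day 9 and 2 arrays of preadipocytes labelled day 0. These are 5 of the 11 arrays of the series, and all 19057 genes measured on them are described, with the weight on transcription factors, receptors, secreted proteins and organelles. 3T3-L1 is an established mouse fibroblast line that is widely used as a model of fat cell formation. Both groups had been transduced with the non-target lentivirus. The control adipocytes alone were then induced with 0.5 µM insulin, 1 µM of the glucocorticoid dexamethasone, 1 µM of the PPAR gamma agonist rosiglitazone and 0.5 mM of the phosphodiesterase inhibitor IBMX, and afterwards kept in insulin and rosiglitazone. Differentiation and a response to these agents therefore cannot be told apart here. Induction started after confluency. The paper describes the array RNA as coming from samples parallel to another experiment, for which preadipocytes were taken before they reached confluency. How dense the preadipocytes of the arrays themselves were is not stated outright. A difference in cell density and growth between the groups therefore cannot be told apart from differentiation either. Adipocytes are at day 9 in the labels but at day 6 in the series text and the methods, and nothing in the values tells which is right. Replicates are termed biological in the methods without word on separate cultures or on the number of stable lines, so that the p-values cover the spread between arrays, which may be technical. The remaining 6 arrays, from cells with Tmem120a or Tmem120b knocked down, entered the model only to help estimate the spread.

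Fat cell differentiation is a cascade of transcription factors. In cultured preadipocytes the hormones of the induction medium first act on C/EBP beta and C/EBP delta, which switch on C/EBP alpha and PPAR gamma, and this pair then maintains each other and the genes of the mature fat cell. The cell leaves the division cycle, gives up the actin stress fibres of a fibroblast, and takes on the lipid droplets, mitochondria and hormone secretion of an adipocyte.

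Total RNA was converted to labelled cRNA and measured on 1 Illumina MouseWG-6 v2 BeadChip array per sample. Values are the authors' quantile-normalised log2 signals, and every level, change and interval given here is on that log2 scale unless it is called a fold. A background threshold of 6.87 was set from the values, which about 39.0% of the probes of an array exceeded. Each gene is represented by its brightest probe. The log2 change is control adipocytes minus preadipocytes, and a gene was called when its adjusted p in limma, a linear model with moderated variances fitted to all probes, was 0.05 or less and its log2 change was at least 0.5 in size. Where all arrays of one group lay at or below background, the fold is a lower limit and is written as at least so many fold. On bulk arrays, a lower share of cells of one kind and less RNA per cell cannot be told apart. Arrays of one group correlated at 0.997 to 0.998 across genes and arrays of different groups at 0.901 to 0.904, and genes are not independent replicates.

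The labels were first checked against marker genes. Adipoq, which encodes the hormone adiponectin, measured 13.82, 14.27 and 14.05 in control adipocytes, against 6.73 and 6.73 in preadipocytes (at least 145-fold higher). Cidec, which coats lipid droplets, measured 13.88, 13.85 and 13.79 in control adipocytes, against 6.65 and 6.66 in preadipocytes (at least 125-fold higher), and Plin4, another droplet protein, was 91.9-fold higher (log2 change 6.52). Pparg, the nuclear receptor that governs fat cell identity, measured 12.83, 12.65 and 12.71 in control adipocytes, against 9.12 and 9.13 in preadipocytes. All 4 genes were higher on every array of control adipocytes than on either array of preadipocytes, and the preadipocytes were at background for Adipoq and Cidec but well above it for Pparg. Of the 9 adipocyte markers listed, 8 were called higher, among them Fabp4, a fatty acid carrier, which was picked after its values were seen and whose probe gave only 7.30, 7.41 and 7.37 in control adipocytes, against 6.65 and 6.63 in preadipocytes (at least 1.4-fold higher). Among markers of the undifferentiated cell the picture was mixed: Thy1 (log2 change -1.46), a fibroblast surface glycoprotein, and Cd44 (-2.77), the hyaluronan receptor, fell, Pdgfrb (0.61) rose, and Dlk1, the inhibitor of adipogenesis also named Pref-1, gave 13.79, 14.30 and 14.35 in control adipocytes, against 14.37 and 14.38 in preadipocytes and was not called (log2 change -0.23, adjusted p = 0.251). The signals of Dlk1 lie near the top of the scale, 14.6, which makes its change uncertain. Over the 13 markers of the undifferentiated cell 2 rose and 3 fell. This balance turns to 3 higher and 2 lower when each unnormalised array is merely moved to the same median.

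Few markers of other cell types were called. None of the 11 macrophage markers and none of the 10 endothelial markers was called in limma, with 0 higher and 2 lower at an unadjusted p under 0.05 for macrophages and 0 and 1 for endothelium, and 5 and 4 of them lay above background on at least 1 array. Of 10 skeletal muscle markers only the intermediate filament gene Des rose (log2 change 1.94), and of 10 osteoblast and chondrocyte markers only the cartilage factor Sox9 was called (log2 change -1.01), against 1 higher and 0 lower on median-scaled arrays. Ucp1, Dio2, Zic1 and Lhx8, which set brown fat cells apart, were at background in both groups, and Ucp1 measured 6.78, 6.61 and 6.63 in control adipocytes, against 6.65 and 6.65 in preadipocytes (log2 change 0.02). On the wider list of brown and beige markers 5 of 14 genes rose, and these include the cytochrome oxidase subunits Cox8b (at least 58-fold higher) and Cox7a1 (at least 15.1-fold higher).

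Signals differed between control adipocytes and preadipocytes in both directions and to a like extent. Of the 19057 genes tested 4377 (23.0%) were called, 2267 (11.9%) higher and 2110 (11.1%) lower in control adipocytes. These shares include genes at background in both groups. Of the 10900 genes above background on at least 1 array 40.2% were called. The counts of each list below are to be read beside these shares. The 5 arrays of every called gene were fully separated between the groups. The median log2 change over all genes was 0.00091. Changes of at least 2-fold were seen for 1086 genes higher and 985 lower, and changes of at least 8-fold for 106 and 64. At least 32-fold were 17 genes higher and 0 lower. The preadipocytes were at background for 253 of the genes called higher, and the control adipocytes for 135 of those called lower. A further 3321 genes stayed level, by which is meant that both means were above background and the 95% confidence interval of the log2 change lay within -0.5 and 0.5. The scale matters for the balance: on median-scaled arrays 3605 genes were higher and 1261 lower, and the median log2 change of genes above background in both groups was 0.28 in place of -0.0061. Changes below are given on the authors' scale, and the counts on median-scaled arrays, in the same order of directions, stand beside those of a list whose balance of calls turned or was lost under that scaling or whose larger count moved by over 1.5 times.

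**Figure D1:**
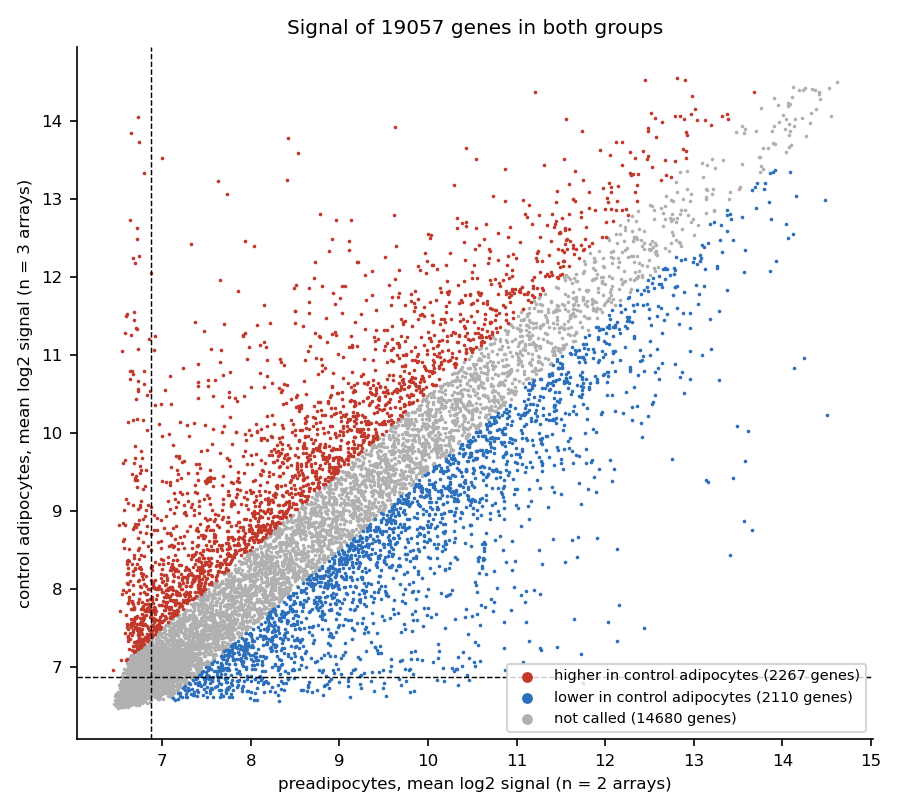
Mean log2 signal of each gene in control adipocytes (vertical axis, n = 3 arrays) against preadipocytes (horizontal axis, n = 2 arrays), with the 2267 genes called higher in red, the 2110 called lower in blue and the background threshold of 6.87 as dashed lines. The red points along the left edge are genes at background in preadipocytes, 253 of those called higher.

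Transcription factors were examined family by family. Nuclear receptors are ligand-regulated factors, and 7 of the 44 measured rose while 2 fell, against 14 and 2 on median-scaled arrays. Pparg was 12.1-fold higher (log2 change 3.60 ± 0.0978 SE, adjusted p = 1.47e-11). Nr1h3, the oxysterol receptor LXR alpha, measured 10.07, 10.03 and 10.01 in control adipocytes, against 6.75 and 6.90 in preadipocytes (log2 change 3.21 ± 0.0614 SE, adjusted p = 7.62e-13). Rora, an orphan receptor of the clock, measured 9.09, 9.06 and 9.22 in control adipocytes, against 6.95 and 7.19 in preadipocytes (log2 change 2.06), and Esrra, which acts on mitochondrial genes, measured 10.09, 10.37 and 10.18 in control adipocytes, against 8.98 and 9.15 in preadipocytes (log2 change 1.15). As for every called gene, the groups did not overlap for these receptors. Moving the other way, the vitamin D receptor Vdr measured 7.61, 7.79 and 7.50 in control adipocytes, against 9.54 and 9.60 in preadipocytes, and was 3.83-fold lower (log2 change -1.94 ± 0.116 SE, adjusted p = 2.42e-08), and Nr2f2, an orphan receptor that restrains adipogenesis, fell (log2 change -0.83). Of the RXR partners of PPAR gamma, Rxrb stayed level (log2 change 0.28). Rxra and Rxrg, picked after their values were seen, rose (log2 changes 0.77 and 0.58), Rxrg from background.

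Co-regulators moved in both directions, with 5 of 29 higher and 5 lower, against 7 and 3 on median-scaled arrays. The PGC-1 coactivators that drive mitochondrial genes split: Ppargc1b measured 9.87, 10.09 and 9.94 in control adipocytes, against 6.97 and 7.03 in preadipocytes (log2 change 2.96), and Ppargc1a rose (log2 change 2.03), while the third family member Pprc1 was 3.14-fold lower. Lpin1, a phosphatidate phosphatase that also acts as a coactivator, was at least 12.2-fold higher. Prmt1, an arginine methyltransferase, was 4.43-fold lower. The acetyltransferase Ep300 stayed level (log2 change -0.10).

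Within the C/EBP family, where 2 of 5 rose and 0 fell in limma (1 lower at an unadjusted p under 0.05), the late member Cebpa rose and the early members Cebpb and Cebpd were not called. Cebpa measured 9.60, 9.57 and 9.55 in control adipocytes, against 6.74 and 6.76 in preadipocytes, and was at least 6.5-fold higher (log2 change 2.82 ± 0.191 SE, adjusted p = 7.77e-08). Cebpb gave 12.94, 12.84 and 12.95 in control adipocytes, against 12.46 and 12.60 in preadipocytes, which left it bright in both groups and uncalled (log2 change 0.38, adjusted p = 0.0165), and Cebpd gave a log2 change of -0.49 (adjusted p = 2.16e-05), just short of the size required, and -0.53 and called without preadipocyte replicate 1. Cebpg, a partner with no activation domain of its own, rose (log2 change 1.56). Among 25 Krüppel-like and Sp factors 3 rose and 4 fell, against 3 and 3 on median-scaled arrays. Klf15, which is known to favour fat cell formation, was at least 1.67-fold higher. Klf5 measured 7.12, 7.07 and 7.18 in control adipocytes, against 10.30 and 10.39 in preadipocytes, and was 9.32-fold lower (log2 change -3.22 ± 0.0874 SE, adjusted p = 1.46e-11 in limma). Klf7 fell as well (log2 change -0.96). Ebf1 and Ebf2, early B-cell factors that act with PPAR gamma in fat cells, rose (log2 changes 1.57 and 0.92), and the zinc finger protein Zfp423, known for commitment to the fat lineage, was at least 2.03-fold higher.

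Among basic helix-loop-helix factors the 4 Id proteins, which bind such factors and keep them off DNA, all fell. Id1 measured 9.58, 9.42 and 9.61 in control adipocytes, against 11.93 and 11.92 in preadipocytes (log2 change -2.39), and Id2 and Id3 fell (log2 changes -2.06 and -1.83). Id4, picked after its values were seen, gave a log2 change of -0.70, and of -0.43 and uncalled on median-scaled arrays. The repressor Bhlhe40 measured 11.19, 11.28 and 11.30 in control adipocytes, against 8.99 and 8.93 in preadipocytes, and was 4.9-fold higher (log2 change 2.29 ± 0.0824 SE, adjusted p = 1.83e-10). Twist1, a mesenchymal factor, rose (log2 change 0.74), and the E proteins Tcf4 and Tcf12 stayed level (log2 changes 0.11 and -0.20). Over the 53 genes of this list 4 rose and 6 fell, against 5 higher and 4 lower on median-scaled arrays. In the MYC and MAX network 5 of 14 rose and 3 fell. Of the MXD repressors that compete with MYC, Mxd1, Mxi1 and Mxd4 rose (log2 changes 1.59, 1.11 and 1.11), and Mxd3, dim in both groups, gave 6.62, 6.82 and 6.54 in control adipocytes, against 7.34 and 7.07 in preadipocytes and was called lower (at least 1.26-fold lower), a call lost without control adipocyte replicate 3 (log2 change -0.48) or preadipocyte replicate 1 (-0.41). Mlxipl, the glucose sensor ChREBP, was at least 1.74-fold higher. Srebf1, which drives fatty acid synthesis, rose (log2 change 1.31), whereas Srebf2, its relative for cholesterol, stayed level (log2 change -0.11).

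Clock and PAS-domain factors leaned upwards, with 12 of 32 higher and 1 lower (median log2 change 0.16). Dbp, an output factor of the clock, measured 11.15, 11.18 and 11.19 in control adipocytes, against 8.09 and 8.22 in preadipocytes, and was 8.1-fold higher (log2 change 3.02 ± 0.08 SE, adjusted p = 1.15e-11), and its relative Tef rose (log2 change 1.18). The core activator Arntl stayed level (log2 change 0.22). The hour of harvest is not stated. Among 41 factors of the FOS, JUN, MAF and ATF families 9 rose, led by the stress factors Ddit3 (12.16, 12.04 and 12.36 in control adipocytes, against 9.06 and 9.34 in preadipocytes (log2 change 2.99)) and Xbp1 (12.42, 12.35 and 12.29 in control adipocytes, against 10.47 and 10.58 in preadipocytes (log2 change 1.83)) and by Nfe2l1 (log2 change 1.54). Junb was the largest of the 3 falls, at -1.30, and Atf4, which lies upstream of Ddit3 in the stress response, stayed level (log2 change 0.23).

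**Figure D2:**
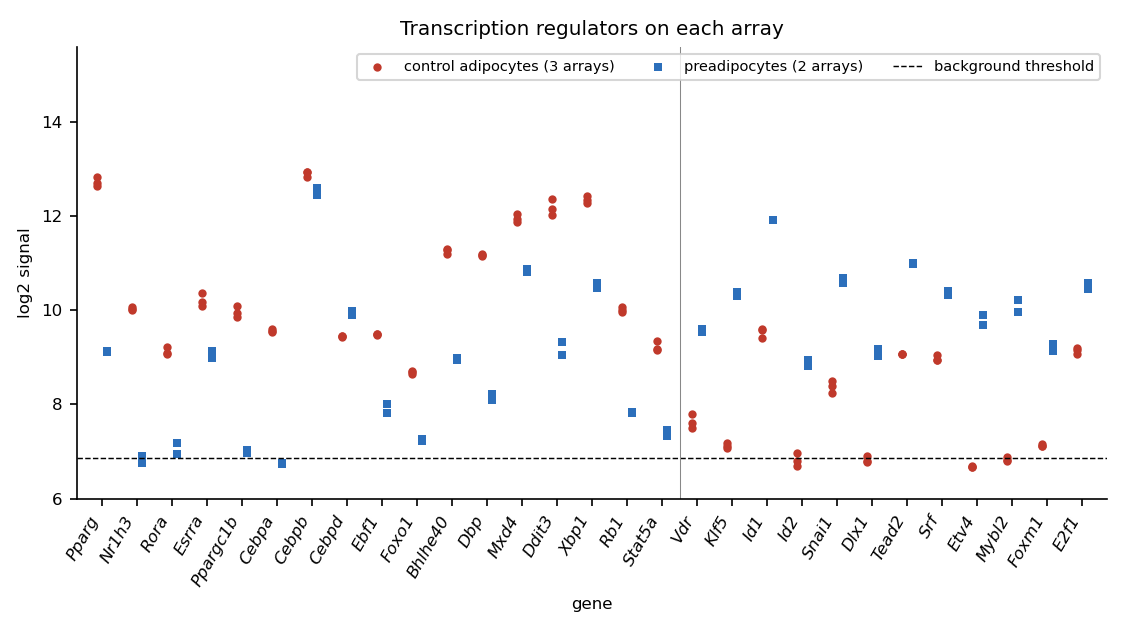
Log2 signal (vertical axis) of 29 transcription regulators on each of the 3 arrays of control adipocytes (red circles) and 2 arrays of preadipocytes (blue squares), with the background threshold of 6.87 dashed and genes lower in control adipocytes to the right of the line. For Cebpb and Cebpd the 2 groups lie close together, while Cebpa, Nr1h3, Etv4 and Mybl2 sit near background in one of them.

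Of 38 HOX genes, which record position along the body, 5 rose and 3 fell, the furthest being Hoxc9 (at least 1.81-fold lower). Among 126 other homeobox factors 8 rose and 8 fell, against 12 and 4 on median-scaled arrays. Irx3 measured 10.15, 10.32 and 10.24 in control adipocytes, against 8.19 and 8.30 in preadipocytes (log2 change 1.99), and the neighbours Dlx1 and Dlx2 fell to near background, Dlx1 measuring 6.79, 6.78 and 6.91 in control adipocytes, against 9.17 and 9.02 in preadipocytes (log2 change -2.27) and Dlx2 giving a log2 change of -2.12. Among 43 forkhead factors Foxo1, the insulin-regulated factor, was alone in rising (log2 change 1.44) and 6 fell, among them Foxm1 (-2.08) and Foxc2 (-1.25), though the balance becomes 4 higher and 3 lower on median-scaled arrays. Of the SOX factors 1 of 20 rose and 4 fell: Sox4, Sox9, Sox11 and Sox12 fell and Sox5 rose, with log2 changes between -1.19 and 0.67. Of the 304 numbered zinc finger proteins, the longest list, 18 rose and 16 fell, shares of 5.92% and 5.26% that lie below those of all genes. This near balance depended on the setting, with 40 and 8 on median-scaled arrays and 18 and 20 without preadipocyte replicate 2.

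Further families were read against the 11.1% of all genes called lower, and the shares called lower were 27.8% of TEAD, YAP and SRF family genes, 20% of ETS factors, 13.5% of GLI, SNAI and ZIC zinc fingers and 9.09% of SMAD and SKI genes. All these shares include genes at background in both groups. In the same order 13 of 18, 17 of 25, 18 of 37 and 9 of 11 genes were above background on at least 1 array. Of TEAD, YAP and SRF family genes 2 of 18 rose and 5 fell. Tead1 and Tead2, the DNA-binding partners of YAP, had log2 changes of -1.41 and -1.92, and Tead2 measured 9.07, 9.07 and 9.08 in control adipocytes, against 11.01 and 10.98 in preadipocytes. Their cofactor Vgll3 fell (log2 change -1.94), and Srf, which controls actin genes, measured 9.06, 8.95 and 8.94 in control adipocytes, against 10.42 and 10.34 in preadipocytes (log2 change -1.39). Vgll4, which competes with YAP, rose (log2 change 0.90). Of the GLI, SNAI and ZIC zinc fingers 1 of 37 rose and 5 fell, against 1 and 3 on median-scaled arrays. Snai1, the repressor of epithelial genes, measured 8.39, 8.51 and 8.25 in control adipocytes, against 10.58 and 10.69 in preadipocytes (log2 change -2.26), and Gli3, a Hedgehog effector, fell (log2 change -1.68). Of ETS factors 1 of 25 rose and 5 fell, against 2 and 3 on median-scaled arrays, and Etv4 measured 6.66, 6.67 and 6.69 in control adipocytes, against 9.91 and 9.69 in preadipocytes, and was at least 7.6-fold lower (log2 change -3.12 ± 0.0724 SE, adjusted p = 3.48e-12), and Ets1 fell (log2 change -1.40). Of 11 SMAD and SKI genes only the BMP effector Smad1 was called (log2 change -1.43), against 1 higher and 1 lower on median-scaled arrays, and Smad3 and Smad5 stayed level (-0.29 and -0.08). Of STAT, IRF and NF-kB factors 4 of 24 rose and 5 fell, against 9 and 2 on median-scaled arrays. Stat5a, the effector of growth hormone signalling, measured 9.34, 9.19 and 9.17 in control adipocytes, against 7.47 and 7.33 in preadipocytes (log2 change 1.83). Of TCF/LEF factors and beta-catenin partners 4 of 18 rose and 4 fell, against 4 and 1 on median-scaled arrays. Tcf7l1 and Tcf7l2 rose (log2 changes 1.19 and 0.99). Axin1, Pygo2, Tle4 and Ctnnbip1 fell (log2 changes -1.07, -0.81, -0.78 and -0.74). Beta-catenin, encoded by Ctnnb1, stayed level (log2 change -0.02).

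Chromatin regulators moved in both directions. Dnmt1, the maintenance DNA methyltransferase, measured 8.02, 8.07 and 7.98 in control adipocytes, against 11.04 and 10.91 in preadipocytes (log2 change -2.94), and its partner Uhrf1 measured 7.67, 7.96 and 7.75 in control adipocytes, against 12.22 and 12.09 in preadipocytes, and was 20.5-fold lower (log2 change -4.36 ± 0.0794 SE, adjusted p = 5.46e-13). Of 28 polycomb and trithorax genes 5 rose and 12 fell, against 5 and 5 on median-scaled arrays. Ezh2, the histone H3 lysine methyltransferase of polycomb, fell (log2 change -1.81), and Kmt2c, a methyltransferase of active enhancers, rose (log2 change 1.24). Histone demethylases went one way in the calls, with 6 of 23 higher and 0 lower in limma (3 lower at an unadjusted p under 0.05), led by Kdm7a (2.18) and Kdm4b (1.74). Of deacetylases 6 of 17 rose and 2 fell. Among them the mitochondrial sirtuin Sirt3 (1.82) and Hdac5 (1.66) rose, and Hdac7 (-1.13) and Hdac2 (-0.73) fell. The high mobility group proteins Hmgb2 and Hmga2, abundant in growing cells, fell, Hmgb2 (-3.28) and Hmga2 to background (at least 2.17-fold lower).

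Genes that copy and divide the genome held many falls and few rises. Of 23 genes that license replication origins 16 fell and 0 rose in limma (1 higher at an unadjusted p under 0.05), with a median log2 change of -2.14. Mcm5, a subunit of the replicative helicase, measured 7.31, 7.33 and 7.35 in control adipocytes, against 12.19 and 12.08 in preadipocytes. Mcm10 measured 6.90, 6.98 and 6.82 in control adipocytes, against 10.41 and 10.47 in preadipocytes (log2 change -3.54), and Cdt1, the licensing factor that loads the helicase, measured 7.86, 7.77 and 7.87 in control adipocytes, against 10.99 and 11.20 in preadipocytes (log2 change -3.26). Orc3 and Orc4, subunits of the origin recognition complex that stays on chromatin, remained level (log2 changes -0.08 and -0.36). Of 39 genes of nucleotide synthesis 28 fell and 6 rose (median -1.23). Tk1, the thymidine kinase of dividing cells, measured 7.13, 7.22 and 7.13 in control adipocytes, against 11.65 and 11.80 in preadipocytes (log2 change -4.56), whereas its mitochondrial counterpart Tk2 rose (log2 change 0.92). Dctd, which makes dUMP from dCMP, and Tyms, which makes thymidylate, fell (log2 changes -3.27 and -3.25).

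Genes of mitosis divided by role. Of 37 centromere and kinetochore genes 22 fell and 1 rose. Cenpa, the centromeric histone, measured 8.54, 8.63 and 8.37 in control adipocytes, against 12.07 and 12.19 in preadipocytes (log2 change -3.62), and the checkpoint kinase Bub1b fell (log2 change -3.36). Kinesins are motor proteins of microtubules, with 11 of 38 lower and 6 higher. The mitotic motors Kif22, Kif2c and Kif4 fell (log2 changes -3.35, -2.93 and -2.82) and Kif15 fell to background (at least 6.17-fold lower), and the transport motors Kif13b, Kif1b and Kif3a rose (log2 changes 0.86, 0.81 and 0.67). Ccnd1, the cyclin that links growth factors to the cycle, measured 10.02, 10.11 and 10.12 in control adipocytes, against 13.53 and 13.45 in preadipocytes (log2 change -3.41). Of the 8 inhibitors of cyclin-dependent kinases, Cdkn2c, which encodes p18, was 10.5-fold higher (log2 change 3.39 ± 0.0724 SE, adjusted p = 1.78e-12), while Cdkn1a, which encodes p21, stayed level (log2 change 0.31), as did Cdkn2b (-0.19). Cdkn1b, Cdkn1c, Cdkn2a and Cdkn2d were not called, and Cdkn3 fell (log2 change -1.57), against 2 higher and 1 lower over the list on median-scaled arrays. Among E2F and B-MYB factors 9 of 21 fell, led by Mybl2 (-3.27), Foxm1 (-2.08) and the E2F partner Tfdp1 (-1.96), and the E2F brake Rb1 measured 9.97, 10.00 and 10.07 in control adipocytes, against 7.85 and 7.81 in preadipocytes (log2 change 2.19).

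Histone genes split into groups that moved in opposite directions. Of 71 core and linker histones 25 rose and 15 fell, with a median log2 change of 0.07. H2ac12, H2ac15 and H2ac22 fell (log2 changes -4.02, -3.75 and -3.79). H4c8, H2ac18, H2ac19 and H4c1 rose (log2 changes 3.84, 3.46, 3.17 and 3.03). H4c8 measured 11.30, 11.32 and 11.31 in control adipocytes, against 7.47 and 7.48 in preadipocytes, and H2ac12 measured 9.42, 9.59 and 9.24 in control adipocytes, against 13.23 and 13.65 in preadipocytes. The copies within each cluster are nearly identical in sequence, so a probe may read several of them and the assignment to single genes is uncertain. The variant histone H3f3b, which is made throughout the cycle, stayed level (log2 change -0.04).

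**Figure D3:**
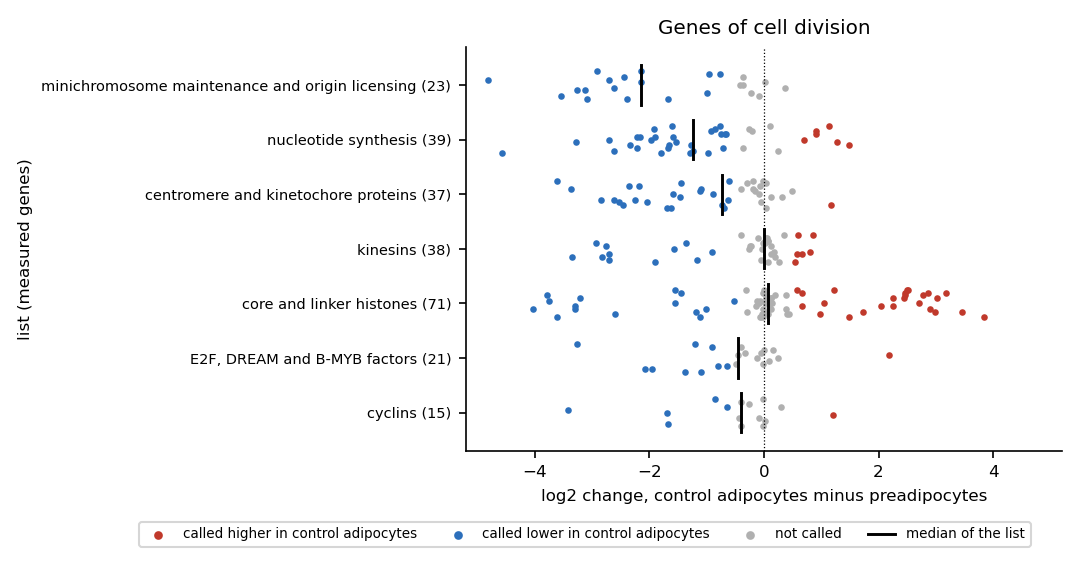
Log2 change, control adipocytes minus preadipocytes (horizontal axis), of each measured gene in 7 lists of cell division, coloured by call, with the median of each list as a black bar. The licensing genes centre on -2.14, whereas the histones lie on both sides of 0.

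The promoters of the division genes were read because these genes moved together. The windows run from 250 bases before to 50 bases after a start site in RefSeq annotation of GRCm38.p6, and 15207 of the tested genes had one, the first listed being used. The letters TTTGGCGC or GCGGGAAA, each searched on both strands, are a strict form of the site bound by E2F factors. They were found in 9 of 18 licensing genes with a window, against 2.27% of all 15207. Stretches upstream of the start of 5 such genes called lower are shown 5′ to 3′ on the strand of the gene because they carry the site, whose letters are in capitals. Mcm7, Cdc6 and Gins3 were picked for this after their values were seen.
Mcm5, chr8:75109330-75109397, plus strand: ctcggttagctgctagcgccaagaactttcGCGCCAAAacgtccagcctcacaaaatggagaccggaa
Mcm6, chr1:128359778-128359845, minus strand: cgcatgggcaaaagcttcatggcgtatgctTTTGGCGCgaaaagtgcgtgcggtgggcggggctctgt
Mcm7, chr5:138172011-138172078, minus strand: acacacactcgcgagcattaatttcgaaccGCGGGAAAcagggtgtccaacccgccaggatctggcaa
Cdc6, chr11:98907983-98908050, plus strand: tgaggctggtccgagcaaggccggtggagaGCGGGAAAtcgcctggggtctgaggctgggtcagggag
Gins3, chr8:95633488-95633555, plus strand: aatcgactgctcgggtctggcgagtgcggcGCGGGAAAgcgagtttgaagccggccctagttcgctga
The log2 changes of these genes were -4.81 for Mcm5, -3.13 for Mcm6, -2.91 for Mcm7 and -2.70 for Cdc6, and Gins3 was 2-fold lower. Over all genes the letters were held by 5.22% of the 1723 called lower and by 1.75% of the 1830 called higher that had a window. Of the 8838 genes above background on at least 1 array with a window 2.94% held them. Other lists of division genes held them less often than the licensing genes. The counts were 2 of 36 genes of nucleotide synthesis, 4 of 34 centromere and kinetochore genes, 2 of 31 kinesins and 1 of 63 histones. Among mitotic genes the letters TTTGAA or TTCGAA on either strand, the cell cycle genes homology region, were found in 8 of the 11 kinesins called lower (72.7%), in 0 of the 4 called higher and in 16.9% of all windows. Over all 31 kinesins with a window the share was 38.7%. Centromere and kinetochore genes held the letters in 10 of the 22 called lower (45.5%) and in 38.2% of all 34. Kif22, Kif2c, Kif15 and Kif11 hold them upstream of the start and are shown for comparison, Kif11 (log2 change -1.91) having been picked for its match.
Kif22, chr7:127042600-127042665, minus strand: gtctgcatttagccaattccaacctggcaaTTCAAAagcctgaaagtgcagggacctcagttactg
Kif2c, chr4:117178840-117178905, minus strand: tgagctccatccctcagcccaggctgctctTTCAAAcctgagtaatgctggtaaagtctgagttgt
Kif15, chr9:122950831-122950882, plus strand: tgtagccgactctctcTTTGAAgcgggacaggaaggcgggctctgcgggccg
Kif11, chr19:37376333-37376381, plus strand: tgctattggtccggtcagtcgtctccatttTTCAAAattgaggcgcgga
Over all called genes the letters of the homology region were in 18.3% of the windows of genes called lower and 13.1% of those called higher. The share was 14% for genes above background on at least 1 array. The CCAAT box, the letters CCAAT on either strand, was in 40.7% of windows of genes called lower, 41.5% of those called higher and 38.6% of all. Windows of genes above background on at least 1 array held the box in 39.3%. It was in 72.2% of the licensing genes and 82.5% of the 63 histones with a window, against 36.1% of genes of nucleotide synthesis. Of the 26 clock factors with a window 53.8% held it, among them 8 of the 9 called higher. The E-box CACGTG, its own reverse complement, was in 11.1%, 10.9% and 8.39% of windows of genes called lower, called higher and of all. For genes above background on at least 1 array it was in 10.3%, close to the shares of called genes. GGAATG, the core letters bound by TEAD factors, were in 40.3% of the 62 actin, myosin and tropomyosin genes with a window against 1980 of all 15207 windows, and in 39.3% of the 28 of them that fell. A match is a description of the letters and not evidence that a factor binds there.

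Receptors that fat cells are known for, and some that they are not, held several large rises. Among 34 lipid-sensing G-protein-coupled receptors 7 rose and 1 fell. Ffar4, the receptor of long-chain fatty acids, measured 11.08, 11.15 and 10.91 in control adipocytes, against 6.57 and 6.52 in preadipocytes, and was at least 18-fold higher (log2 change 4.50 ± 0.0799 SE, adjusted p = 4.81e-13). Ffar2, the receptor of short-chain fatty acids, measured 10.71, 10.82 and 10.74 in control adipocytes, against 6.70 and 6.65 in preadipocytes, and was at least 14.8-fold higher (log2 change 4.08 ± 0.0569 SE, adjusted p = 8.24e-14), and its relative Ffar3 stayed level (log2 change 0.23). Hcar1, which senses lactate and restrains lipolysis, was at least 6.86-fold higher, and Lpar4, a lysophosphatidic acid receptor, measured 11.48, 11.63 and 11.50 in control adipocytes, against 8.64 and 8.68 in preadipocytes (log2 change 2.88). As for every called gene, the groups did not overlap for the receptors that rose.

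Few receptors for peptides were measured above background, and these moved in both directions. Mc2r, the receptor of adrenocorticotropic hormone, measured 8.56, 8.60 and 8.68 in control adipocytes, against 6.55 and 6.56 in preadipocytes, and was at least 3.35-fold higher (log2 change 2.06 ± 0.0615 SE, adjusted p = 3.32e-11), and its obligatory accessory protein Mrap was at least 41.5-fold higher (12.24, 12.22 and 12.27 in control adipocytes, against 6.62 and 6.71 in preadipocytes). Tshr, the thyrotropin receptor, was at least 1.85-fold higher. Of the accessory proteins that tune calcitonin-type receptors, Ramp2 rose (log2 change 1.83) and Ramp3 fell (log2 change -1.34). The thrombin receptor F2r fell to 10.77, 10.80 and 10.77 in control adipocytes, against 12.86 and 12.86 in preadipocytes (log2 change -2.08), and Npy1r, a receptor of neuropeptide Y, gave a log2 change of -1.12. Most peptide receptors lay at background, as 15 of 75 were above background on any array, with 5 called higher and 3 lower. The same held for orphan and adhesion receptors, of which 30 of 110 were above background, with 7 called higher and 8 lower, against 8 and 5 on median-scaled arrays. There Gpr146 was at least 3.9-fold higher, Mrgprf and Gprc5b rose (log2 changes 1.75 and 1.60), and Gpr176 measured 7.03, 6.97 and 7.04 in control adipocytes, against 10.53 and 10.52 in preadipocytes (log2 change -3.51). Chemokine receptors were at background but for 3 of 22, and Ackr4, which removes chemokines without signalling, was the one called (log2 change 1.96).

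Receptor tyrosine kinases moved in both directions. The insulin receptor Insr measured 10.20, 10.24 and 10.23 in control adipocytes, against 8.99 and 8.82 in preadipocytes, and was 2.5-fold higher (log2 change 1.32 ± 0.0886 SE, adjusted p = 7.25e-08), while the related Igf1r measured 7.68, 7.76 and 7.77 in control adipocytes, against 9.62 and 9.59 in preadipocytes, and was 3.65-fold lower (log2 change -1.87 ± 0.0825 SE, adjusted p = 1.29e-09). Egfr, the receptor of epidermal growth factor, rose (log2 change 1.33) on its brightest probe, and 3 other bright probes were called the same way. Axl measured 11.22, 10.97 and 10.83 in control adipocytes, against 13.06 and 13.11 in preadipocytes (log2 change -2.08), and Mertk, another receptor of Gas6, was at least 1.98-fold higher. Epha2, an ephrin receptor, fell to background (at least 3.66-fold lower), and Fgfrl1, a decoy-like FGF receptor without a kinase domain, rose (log2 change 2.00). Over 56 genes 9 rose and 7 fell, shares of 16.1% and 12.5% against 11.9% and 11.1% of all genes. Of 43 genes downstream of insulin 16 rose and 3 fell, including the adaptor Sh2b2 (2.28), the PI3-kinase regulatory subunit Pik3r1 (1.95) and the pseudokinase Trib3 (1.63). Rptor and Tsc2 of the mTOR pathway stayed level (log2 changes 0.12 and -0.11).

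Of cytokine and interleukin receptors 3 of 48 rose and 3 fell, against 6 and 2 on median-scaled arrays. The growth hormone receptor Ghr measured 12.59, 12.66 and 12.64 in control adipocytes, against 10.63 and 10.44 in preadipocytes (log2 change 2.09), and Ifngr1 and Il6ra rose (log2 changes 0.87 and 0.82), with the shared subunit Il6st level (log2 change 0.13). Il13ra1 fell (log2 change -1.11) and the oncostatin receptor Osmr (-0.77). Of the TNF receptor superfamily 3 of 27 rose and 4 fell, against 3 and 2 on median-scaled arrays. The tumour necrosis factor receptor Tnfrsf1a rose (log2 change 1.42), while Tnfrsf12a, the receptor of TWEAK, and the death receptor Fas fell (log2 changes -1.24 and -0.73). Tgfbr1, the type I receptor of TGF-beta, measured 11.70, 11.74 and 11.69 in control adipocytes, against 10.15 and 10.02 in preadipocytes (log2 change 1.63). Of Wnt receptors 4 of 25 rose and 2 fell, against 8 and 0 on median-scaled arrays. Fzd1 and Fzd5 were among the rises (log2 changes 1.03 and 0.90), and the Notch receptor Notch1 rose as well (log2 change 1.07). Of lipoprotein, scavenger and sorting receptors 10 of 31 rose and 3 fell. Sort1, or sortilin, which sorts glucose transporter vesicles in fat cells, measured 12.40, 12.45 and 12.43 in control adipocytes, against 7.37 and 7.28 in preadipocytes, and was 34.3-fold higher (log2 change 5.10 ± 0.0896 SE, adjusted p = 4.42e-13), and 3 other bright probes were also called higher. Scara5, a ferritin receptor, rose (log2 change 3.07), the very low density lipoprotein receptor Vldlr (2.33) and the receptor chaperone Lrpap1 (1.53), whereas Lrp8 fell to background (at least 2.71-fold lower).

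**Figure D4:**
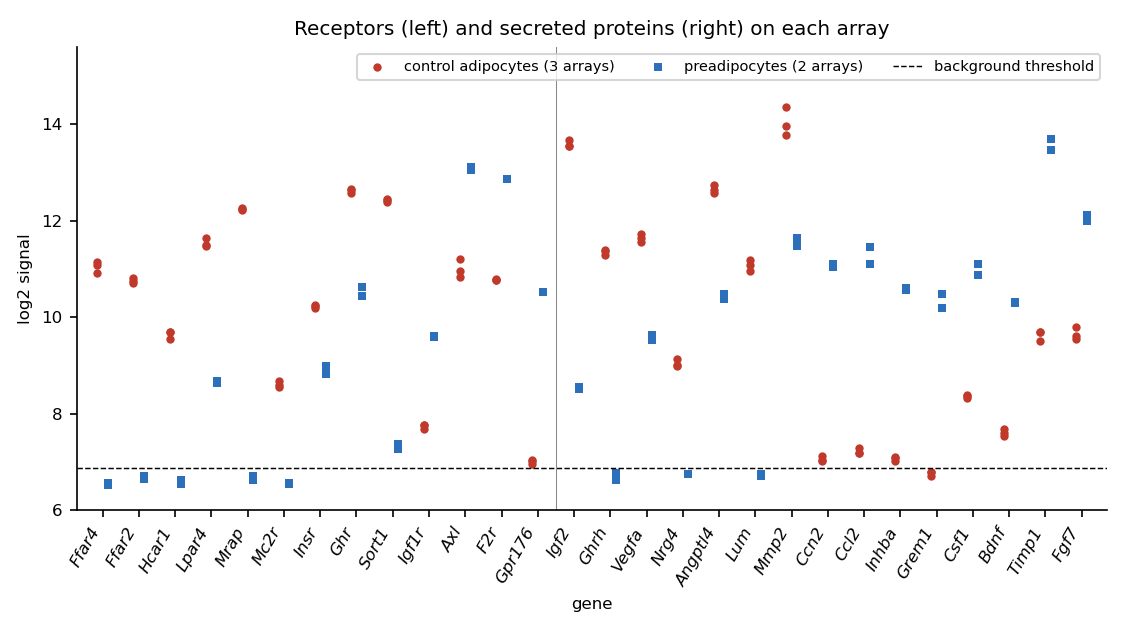
Log2 signal (vertical axis) of 13 receptors or receptor-associated proteins (left of the line) and 15 secreted proteins (right of it) on each of the 3 arrays of control adipocytes (red circles) and 2 arrays of preadipocytes (blue squares), with the background threshold of 6.87 dashed. The 2 groups are apart for each gene shown, and Ffar4, Ffar2, Hcar1, Mrap and Mc2r lie at background in preadipocytes.

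Secreted proteins included genes with large changes in both directions. Of 29 adipokines and fat cell hormones 11 rose and 3 fell. Besides adiponectin, Agt, the precursor of angiotensin, was at least 15.2-fold higher, Lep, or leptin, which was picked after its values were seen, measured 8.88, 8.99 and 8.93 in control adipocytes, against 6.84 and 6.76 in preadipocytes (at least 4.18-fold higher), and Ghrh, the growth hormone-releasing hormone of the hypothalamus, measured 11.39, 11.38 and 11.28 in control adipocytes, against 6.64 and 6.77 in preadipocytes, and was at least 22.3-fold higher (log2 change 4.65 ± 0.186 SE, adjusted p = 5.04e-10). Nrg4, a hormone of brown fat, was at least 4.51-fold higher. Igf2 measured 13.68, 13.55 and 13.55 in control adipocytes, against 8.51 and 8.55 in preadipocytes, and was 33.4-fold higher (log2 change 5.06 ± 0.0911 SE, adjusted p = 5.06e-13), Igfbp4, which binds it, rose (log2 change 4.03), and Igfals, which stabilises circulating IGF, was at least 5.99-fold higher. Igfbp7 stayed level and bright (log2 change 0.17).

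Of growth factors of the FGF, VEGF, PDGF, EGF and HGF families 8 of 56 rose and 10 fell, against 9 and 9 on median-scaled arrays. Vegfa measured 11.65, 11.72 and 11.56 in control adipocytes, against 9.53 and 9.64 in preadipocytes (log2 change 2.06), and Vegfb, a relative linked to lipid uptake, rose (log2 change 2.05). Of 13 angiopoietin-type genes 5 rose and 0 fell in limma (2 lower at an unadjusted p under 0.05). Angptl4, an inhibitor of lipoprotein lipase, measured 12.64, 12.58 and 12.73 in control adipocytes, against 10.38 and 10.48 in preadipocytes (log2 change 2.22), and Angpt1, Angptl6 and Angptl1 rose as well, Angpt1 and Angptl6 with log2 changes of 1.41 and 2.00 and Angptl1 from background (at least 3.8-fold higher). Other growth factors fell: Fgf7 (-2.41), the heparin-binding EGF Hbegf (-1.54), Nrg1 (-1.80), and Csf1, the macrophage growth factor, to 8.38, 8.37 and 8.33 in control adipocytes, against 10.87 and 11.10 in preadipocytes (log2 change -2.62). Of neurotrophic factors 1 of 14 rose and 4 fell, with Bdnf measuring 7.55, 7.60 and 7.69 in control adipocytes, against 10.33 and 10.29 in preadipocytes (log2 change -2.70) and Gdnf giving a log2 change of -1.31.

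Of IGF, IGF-binding and CCN proteins 8 of 21 rose and 6 fell, and of ligands of the TGF-beta, activin and BMP families 3 of 31 rose and 2 fell. Ccn2 measured 7.02, 7.12 and 7.04 in control adipocytes, against 11.10 and 11.03 in preadipocytes, and was 16.1-fold lower (log2 change -4.01 ± 0.0546 SE, adjusted p = 7.01e-14), and Ccn1 fell (log2 change -3.14). Inhba, the subunit of activin A, measured 7.03, 7.12 and 7.09 in control adipocytes, against 10.57 and 10.61 in preadipocytes (log2 change -3.51), and Grem1, a BMP antagonist, measured 6.79, 6.80 and 6.71 in control adipocytes, against 10.47 and 10.20 in preadipocytes, and was at least 11-fold lower (log2 change -3.57 ± 0.0748 SE, adjusted p = 1.55e-12). Tgfb1 rose (log2 change 1.33), and Tgfb2 and Tgfb3 stayed level (log2 changes 0.22 and 0.12). None of the 19 Wnt ligands was called in limma (0 higher and 2 lower at an unadjusted p under 0.05, and 1 higher and 0 lower on median-scaled arrays), and Wnt5a, one of 2 above background, stayed level (log2 change 0.19). Of 38 chemokines 8 fell and 2 rose. Ccl2, which attracts monocytes, measured 7.29, 7.18 and 7.18 in control adipocytes, against 11.46 and 11.10 in preadipocytes (log2 change -4.06), and Cxcl1, Ccl7 and Cxcl12 fell (log2 changes -2.56, -2.46 and -2.12). Eotaxin, encoded by Ccl11, was the larger of the rises at 1.36.

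Several proteins known from blood plasma rose. Of 31 acute-phase and plasma proteins 9 rose and 0 fell in limma (1 lower at an unadjusted p under 0.05). Hp, or haptoglobin, measured 12.27, 12.24 and 12.31 in control adipocytes, against 6.70 and 6.78 in preadipocytes, and was at least 42.2-fold higher (log2 change 5.53 ± 0.058 SE, adjusted p = 1.28e-14), Orm2, an acid glycoprotein, was at least 25.7-fold higher, and the siderophore-binding Lcn2 rose (log2 change 3.16). Of 30 apolipoproteins and relatives 8 rose and 1 fell, Apoc4 rising from background (at least 3.85-fold higher), and lipoprotein lipase Lpl, already bright in preadipocytes, rose (log2 change 3.16). Complement gave 7 rises and 1 fall over 37 genes, the fall being the lectin pathway protease Masp1 (-2.29).

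Genes of the extracellular matrix moved in both directions. Of the small proteoglycans that coat collagen 4 of 15 rose and 0 fell in limma (1 lower at an unadjusted p under 0.05), Lum measuring 11.19, 11.09 and 10.96 in control adipocytes, against 6.72 and 6.75 in preadipocytes (at least 18.5-fold higher), with Prelp, Dcn and Ogn giving log2 changes of 3.76, 3.23 and 2.71, and biglycan Bgn stayed level and bright (0.25). Of 41 collagens 12 rose and 3 fell, including Col15a1 (at least 6.13-fold higher), Col3a1 (2.51), Col6a2 (2.12) and Col6a1 (1.54) among the rises and Col8a1 (-2.31) among the falls. Basement membrane genes gave 9 rises and 2 falls over 25, with Col4a1 at 1.28 and Nid2 at 1.90. The cross-linking enzyme Loxl4 fell (log2 change -2.14) while Lox stayed level (log2 change 0.23). Of matrix metalloproteases and their inhibitors 5 of 26 rose and 4 fell. Mmp2 measured 14.36, 13.77 and 13.96 in control adipocytes, against 11.64 and 11.47 in preadipocytes (log2 change 2.48) and Mmp14, which activates it, rose (log2 change 1.33). The inhibitor Timp1 measured 9.70, 9.70 and 9.51 in control adipocytes, against 13.69 and 13.46 in preadipocytes (log2 change -3.94), Timp3 fell (log2 change -2.93), Timp2 stayed level (log2 change -0.04) and Timp4 was at least 2.29-fold higher, so the 4 inhibitors went in different directions. Serpinf1 and Serpinh1 were among the brightest secreted or ER genes that stayed level (0.28 and -0.13).

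Genes of the respiratory chain were mostly called higher. Of 43 genes of respiratory complex I 29 rose and 1 fell (median log2 change 0.78), and of 62 genes of complexes II to V 40 rose and 0 fell in limma (3 lower at an unadjusted p under 0.05, median 0.69). Ndufv3, a complex I subunit, rose (log2 change 1.91), and Uqcrc2, of complex III, measured 13.07, 13.04 and 12.91 in control adipocytes, against 11.67 and 11.61 in preadipocytes (log2 change 1.36). The mitochondrial ribosome, which makes the mitochondrially encoded subunits, had 9 of 77 genes higher and 4 lower with a median of 0.08, against 35 and 0 with a median of 0.49 on median-scaled arrays, so its state depends on the scale. The import machinery had 4 of 39 higher and 6 lower, which became 13 higher and 1 lower on median-scaled arrays and 5 higher and 4 lower without control adipocyte replicate 1. The chaperonin Hspd1 fell (log2 change -0.69), and Hspa9 stayed level (log2 change 0.31). Nrf1, a regulator of nuclear-encoded mitochondrial genes, fell (log2 change -0.92), and the protease Lonp1 rose (log2 change 1.18). Of 50 carriers of the inner membrane 14 rose and 4 fell. Slc25a10, the dicarboxylate carrier, measured 11.67, 11.52 and 11.50 in control adipocytes, against 8.64 and 8.35 in preadipocytes (log2 change 3.07), and Slc25a1, which exports citrate for lipid synthesis, rose (log2 change 2.74), while the phosphate carrier Slc25a3 stayed level (log2 change -0.01).

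Most genes of peroxisomes and lysosomes were called higher. Of 53 peroxisomal genes 34 rose and 2 fell, with a median log2 change of 1.03. Pex11a, which makes peroxisomes divide, measured 10.74, 10.81 and 10.67 in control adipocytes, against 7.74 and 7.63 in preadipocytes (log2 change 3.05), and the epoxide hydrolase Ephx2, the membrane protein Pxmp4 and the carnitine acetyltransferase Crat rose (log2 changes 3.27, 3.08 and 2.99). The falls were Far1 (-0.80) and Agps (-0.73), enzymes of ether lipid synthesis. Of 55 lysosomal genes 34 rose and 0 fell in limma (1 lower at an unadjusted p under 0.05, median 0.73). Neu1, a sialidase, measured 11.20, 11.30 and 11.21 in control adipocytes, against 8.83 and 8.73 in preadipocytes (log2 change 2.46), and the ganglioside activator Gm2a, the acid lipase Lipa and the peptidase Tpp1 rose (log2 changes 2.20, 2.00 and 1.97). Of 22 subunits of the proton pump that acidifies lysosomes 11 rose and 0 fell (2 lower at an unadjusted p under 0.05), with Atp6v0d1 measuring 12.60, 12.33 and 12.40 in control adipocytes, against 10.40 and 10.42 in preadipocytes (log2 change 2.03). Autophagy genes gave 16 rises among 42, including Gabarapl1 (1.56) and Map1lc3a (1.31).

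Genes of the secretory pathway moved in both directions. Golgi genes gave 18 rises and 20 falls among 167, shares of 10.8% and 12% that lie close to those of all genes, and ER chaperones 6 and 7 among 41, which became 32 higher and 8 lower and 17 higher and 2 lower on median-scaled arrays. The balance for ER chaperones also turned to 7 and 5 without control adipocyte replicate 2 and to 6 and 5 without preadipocyte replicate 1. Single genes stood out: Dnajb9, an ER chaperone induced by XBP1, measured 11.52, 11.58 and 11.50 in control adipocytes, against 8.92 and 9.13 in preadipocytes (log2 change 2.51), and the collagen-modifying Plod1 rose (log2 change 1.74). The prolyl hydroxylase subunit and isomerase P4hb stayed level (log2 change 0.17). Of 59 RAB GTPases 7 rose and 5 fell, against 19 and 2 on median-scaled arrays and 5 and 6 with cyclic loess. The Rab3 members that control exocytosis stood out, Rab3d measuring 9.28, 9.38 and 9.33 in control adipocytes, against 7.13 and 7.05 in preadipocytes (log2 change 2.24) and Rab3a rising (log2 change 1.89). Of 10 genes of caveolae, the flask-shaped membrane pits that abound in fat cells, 5 rose, including Ehd2 (1.55), Cav2 (1.36) and the very bright Cav1 (0.71).

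**Figure D5:**
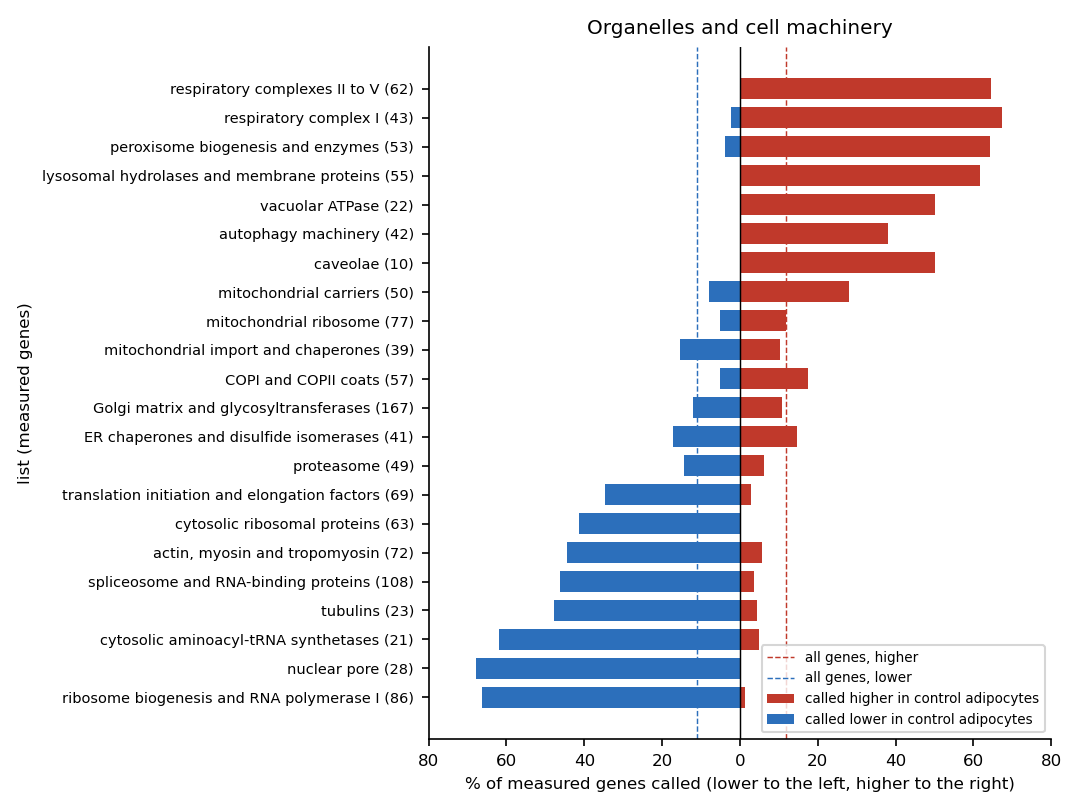
Share of measured genes called higher (red, to the right) or lower (blue, to the left) in control adipocytes for 22 lists of organelles and machinery, in percent, with dashed lines at the shares over all genes (11.9% and 11.1%) and the number of measured genes in brackets. Respiratory, peroxisomal and lysosomal lists reach 67.4%, 64.2% and 61.8% higher, and ribosome biogenesis and the nuclear pore 66.3% and 67.9% lower. The dashed lines include genes at background in both groups. Of genes above background on at least 1 array 40.2% were called in either direction.

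Genes of the nuclear pore and of ribosome assembly were mostly called lower. Of 28 nuclear pore genes 19 fell and 0 rose in limma (0 higher at an unadjusted p under 0.05), with a median log2 change of -0.77. Nup107, of the outer ring, measured 8.18, 8.25 and 8.27 in control adipocytes, against 10.74 and 10.76 in preadipocytes (log2 change -2.52), and Nup43, Nup85 and Nup93 fell (log2 changes -2.14, -2.09 and -1.97). Of lamins and inner nuclear membrane proteins 7 of 30 rose and 8 fell, against 11 and 8 on median-scaled arrays. The B-type lamins Lmnb1 and Lmnb2 fell, Lmnb1 measuring 7.66, 7.70 and 7.55 in control adipocytes, against 10.53 and 10.32 in preadipocytes (log2 change -2.79) and Lmnb2 giving a log2 change of -1.63. The inner membrane proteins Tmpo and Nrm fell (log2 changes -2.26 and -2.32). In the opposite direction, Tmem120a measured 12.52, 12.69 and 12.69 in control adipocytes, against 10.84 and 11.02 in preadipocytes, and was 3.26-fold higher (log2 change 1.70 ± 0.0936 SE, adjusted p = 1.08e-08), and Tmem120b measured 10.53, 10.35 and 10.46 in control adipocytes, against 7.32 and 7.49 in preadipocytes, and was 8.27-fold higher (log2 change 3.05 ± 0.086 SE, adjusted p = 2.1e-11). Of 86 genes of ribosome biogenesis and RNA polymerase I 57 fell and 1 rose (median -0.88), Nop56, a core protein of box C/D snoRNPs, measuring 9.20, 9.28 and 9.36 in control adipocytes, against 11.65 and 11.97 in preadipocytes (log2 change -2.53). The rise was Tsr1 (0.94), an assembly factor of the small subunit, for which a second bright probe gave a log2 change of -0.92.

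Cytosolic translation moved less far. Of 63 ribosomal protein genes 26 fell and 0 rose in limma (1 higher at an unadjusted p under 0.05), with a median of -0.40, against 10 and 1 with a median of -0.27 on median-scaled arrays, and the brightest, Rps2 and Rplp1, stayed level (log2 changes -0.04 and -0.12). Many ribosomal protein genes have near-identical pseudogenes and signals near the top of the scale, 14.6, which makes single values uncertain. Of 21 cytosolic tRNA synthetases 13 fell and 1 rose, against 8 and 3 on median-scaled arrays, with Vars and Kars at -1.55 and -1.43. Of 69 initiation and elongation factors 24 fell and 2 rose, against 10 and 7 on median-scaled arrays, with Eif2s2 at -1.48. Eif4ebp1, the translation repressor that mTOR switches off, rose (log2 change 0.61). Of 108 splicing and RNA-binding genes 50 fell and 4 rose, against 33 and 9 on median-scaled arrays, Snrpd1 measuring 10.03, 10.25 and 10.24 in control adipocytes, against 12.45 and 12.16 in preadipocytes (log2 change -2.13). Of cytosolic chaperones 11 of 87 rose and 24 fell, against 18 and 17 on median-scaled arrays. Hsph1 and Hsp90aa1 fell (log2 changes -1.79 and -1.52). In the proteasome, where 3 of 49 rose and 7 fell, against 6 higher and 3 lower on median-scaled arrays, the rises were the immunoproteasome subunits Psmb9 (1.41) and Psmb8 (1.11) and the activator Psme1 (0.53), whose call was lost without preadipocyte replicate 2 (0.43).

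Among contractile genes of the cytoskeleton more fell than rose. Of 72 actin, myosin and tropomyosin genes 32 fell and 4 rose. Myl9, the regulatory light chain of smooth muscle myosin, measured 7.34, 7.29 and 7.38 in control adipocytes, against 11.13 and 11.15 in preadipocytes (log2 change -3.80), and Pdlim1, a stress fibre protein, fell (log2 change -3.02). Acta2 fell (log2 change -4.27) on its brightest probe, whose preadipocyte signal of 14.5 lies near the top of the scale, and 3 other bright probes were called the same way. Mylk, the kinase of myosin light chain, rose (log2 change 1.64). Of 23 tubulin genes 11 fell, with Tubb6 at -2.37 and Tubb5 at -1.50. Of intermediate filaments and septins 4 of 68 rose and 5 fell, against 5 and 3 on median-scaled arrays, and vimentin, encoded by Vim, and the linker Plec fell (log2 changes -0.60 and -1.28). Of junction genes 3 of 54 rose and 5 fell, against 4 and 3 on median-scaled arrays. Claudin 15, encoded by Cldn15, rose to 10.98, 11.09 and 11.14 in control adipocytes, against 7.54 and 7.56 in preadipocytes (log2 change 3.52), and the gap junction protein Gja1 stayed level (log2 change 0.18).

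Transporters changed for single substrates. The water channels moved apart, Aqp7, which passes glycerol out of fat cells, measuring 9.60, 9.65 and 9.58 in control adipocytes, against 6.53 and 6.59 in preadipocytes (at least 6.67-fold higher) and Aqp1 measuring 7.53, 7.50 and 7.48 in control adipocytes, against 12.47 and 12.41 in preadipocytes (log2 change -4.93). Slc2a4, the insulin-regulated glucose transporter GLUT4, measured 10.77, 10.47 and 10.45 in control adipocytes, against 6.67 and 6.78 in preadipocytes, and was at least 12.9-fold higher (log2 change 3.84 ± 0.0873 SE, adjusted p = 3e-12), and Slc5a6, which takes up biotin and pantothenate, rose (log2 change 2.25). Of metal and phosphate carriers 5 of 49 rose and 8 fell, against 11 and 4 on median-scaled arrays. The metalloreductases Steap1 and Steap2 fell (log2 changes -3.53 and -2.84), and metallothionein Mt1, already bright, rose (log2 change 1.74). Among ABC transporters, of which 11 of 48 rose and 3 fell, Abcd2, which carries fatty acids into peroxisomes, was at least 4.39-fold higher, and the drug transporter Abcb1b measured 7.15, 7.18 and 7.23 in control adipocytes, against 10.37 and 10.42 in preadipocytes (log2 change -3.21). Amino acid carriers gave 4 rises and 6 falls over 55, shares of 7.27% and 10.9% that lie below those of all genes. On median-scaled arrays they gave 5 higher and 4 lower. The glutamate carrier Slc1a3 rose (log2 change 1.59) and Slc38a2 fell (log2 change -1.88). Of 103 potassium channel genes 31 were above background, and Kcnk3, a leak channel that sets the resting potential, was at least 3.14-fold higher.

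In signalling, Rgs2, which limits signalling by G proteins, was at least 5.31-fold higher, whereas Rgs4 fell to background (at least 3.39-fold lower) and Rgs16 gave a log2 change of -1.50. Of 68 genes of that list 3 rose and 9 fell, against 11 higher and 7 lower on median-scaled arrays. The regulatory subunit Prkar1a of protein kinase A stayed level (log2 change -0.05). Of suppressors of cytokine signalling and JAK kinases 2 of 16 rose and 4 fell, against 5 and 3 on median-scaled arrays. Socs2, Socs3 and Socs5, feedback inhibitors of cytokine receptors, fell (log2 changes -1.02, -1.05 and -1.04). Of protein kinase C and diacylglycerol kinase genes 0 of 32 rose and 2 fell in limma (5 higher at an unadjusted p under 0.05), against 4 and 2 on median-scaled arrays. Prkca, the conventional protein kinase C, fell (log2 change -1.54). Tspan12, a tetraspanin that supports Frizzled signalling, measured 10.05, 10.24 and 10.11 in control adipocytes, against 7.17 and 7.23 in preadipocytes (log2 change 2.93).

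Metabolic enzymes outside the classic lipid pathways held large changes in both directions. Hsd3b7, an enzyme of bile acid synthesis, rose (log2 change 3.20), and Sult1a1, a sulfotransferase of phenols, was at least 25.1-fold higher (11.43, 11.52 and 11.60 in control adipocytes, against 6.53 and 6.67 in preadipocytes). Car3, a carbonic anhydrase known for its abundance in fat, was at least 24.8-fold higher, and Car5b, its mitochondrial relative, measured 11.10, 11.13 and 11.17 in control adipocytes, against 8.14 and 8.06 in preadipocytes (log2 change 3.03). Of 57 aldehyde and retinol metabolism genes 16 rose and 1 fell, including Aldh6a1, of valine breakdown, which measured 11.80, 12.14 and 11.92 in control adipocytes, against 7.60 and 7.72 in preadipocytes (log2 change 4.30), and Adh1 (at least 7.76-fold higher). Of cytochrome P450 enzymes 8 of 82 rose and 1 fell, shares of 9.76% and 1.22% beside 11.9% and 11.1% of all genes. Only 22 of these enzymes were above background on at least 1 array, and members at background lower both shares. Cyp2f2 was at least 14.1-fold higher, and Cyp1b1, an estrogen hydroxylase, fell (log2 change -1.44). Of glutathione and antioxidant enzymes 19 of 61 rose and 7 fell. Mgst1 and Gstz1 rose (log2 changes 2.88 and 3.56), and Nqo1, a quinone reductase, measured 7.91, 8.04 and 8.03 in control adipocytes, against 10.26 and 10.28 in preadipocytes (log2 change -2.28). Enzymes of serine and one-carbon metabolism gave 7 rises and 15 falls over 39, against 8 and 8 on median-scaled arrays. Shmt1 fell (log2 change -2.46) and Ahcy (-1.79), while Gpt, the alanine transaminase, rose (log2 change 3.41) and Mthfd2 stayed level (log2 change -0.28). For phospholipids, Chpt1, which makes phosphatidylcholine, measured 11.82, 11.75 and 11.89 in control adipocytes, against 7.78 and 7.93 in preadipocytes (log2 change 3.97).

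Ranked by size over all genes, those in rank 11 to 30 of the rises that are not yet described were G0s2, an inhibitor of the lipase ATGL (at least 39.6-fold higher), Pnpla2, which encodes that lipase (41.1-fold higher), Dgat2, which completes triglycerides (40.5-fold higher), Gpd1, which makes their glycerol backbone (36-fold higher), and Agpat2, which acylates it (28.5-fold higher). Adig, or adipogenin, was at least 23.9-fold higher, Thrsp, a regulator of lipogenesis, at least 21.2-fold higher, the carboxylesterase Ces1d at least 22.1-fold higher and Pnpla3 at least 20.9-fold higher. Ppp1r3c, which targets a phosphatase to glycogen, was 23-fold higher, Cdo1, which degrades cysteine, at least 20.2-fold higher, and S100a1, a calcium-binding protein, 20.5-fold higher. G0s2 measured 12.19, 12.16 and 12.19 in control adipocytes, against 6.66 and 6.73 in preadipocytes. In the same ranks of the falls, Birc5, the mitotic protein survivin, was 18.4-fold lower, Top2a, a topoisomerase of dividing cells, 16.2-fold lower, Pbk, a mitotic kinase, 15-fold lower, and Cdc20, an activator of the anaphase-promoting complex, 12.2-fold lower. Prkg2, a cGMP-dependent kinase, was 16.3-fold lower, Ankrd1, a target of YAP, 12.4-fold lower, and Anxa3, a calcium-binding annexin, 12-fold lower. Prkg2 measured 7.62, 7.61 and 7.62 in control adipocytes, against 11.60 and 11.70 in preadipocytes. A second bright probe was available for 1551 of the 4377 called genes, and for 1259 of these (81.2%) it was called in the same direction.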

How the data were processed

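The authors hybridised 1 Illumina MouseWG-6 v2 array per sample and deposited quantile-normalised log2 signals, and separately log2 signals not normalised between arrays, which served as an alternative. Per the labels limma was among their tools. Neither its version nor the position of the arrays on their chips is stated. Of 45281 probes 34885 carry 1 gene symbol in the platform annotation, 18 several and 10378 none. Group means were fitted to all 11 arrays with limma 3.58.1 in R 4.3.3, on 6 residual degrees of freedom, with p-values adjusted over all probes by the Benjamini-Hochberg method. The background threshold was the mode of all values plus 3 times the spread below it. The number of arrays limits the precision. The fitting code was tested on simulated data. Lists were described by counts and medians, with no test of a list. Genes were named by rule: marker genes, Tmem120a and Tmem120b, up to 4 rises and 4 falls of a list by size, its 2 brightest level members, all members of lists of at most 8, and ranks 11 to 30 of all rises and falls. The samples, lists and this rule were chosen with earlier results of these data known. Replicate numbers of the titles were not used to pair the samples in the main fit. Alternatives varied the normalisation, low-signal filter, test, probe per gene and arrays in the fit.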

Additional observations from a re-analysis of the deposited data

How the results depend on the processing

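On median-scaled arrays 3605 genes were higher, 1261 lower and 2137 level, against 2267, 2110 and 3321 on the authors' scale, so that 74.1% of called genes were higher in place of 51.8%, and the cause was not tested. Requiring a change beyond 0.5 (limma's treat) gave 2967 genes called, and the mean of all probes of a gene gave 3385, against 4377. The other settings, which were other quantile normalisations, cyclic loess, 2 low-signal filters, the moderated F statistic, a variance trend, the 5 arrays alone and the probe with the smallest p, gave 4372 to 4553. Leaving out each array in turn gave 4385 to 4419 genes called, 2244 to 2298 higher, 2107 to 2149 lower and 2873 to 3127 level. With the replicate number as a block 4387 genes were called, 2279 higher and 2108 lower. Arrays with the same number correlated at 0.069 and 0.073 in their deviations from the group means. The deviations of the 2 preadipocyte arrays mirror each other, so these values cannot tell whether same-numbered arrays share a culture or batch. The block moved no count of calls by over 1.5 times. Near-balanced lists also turned elsewhere. With limma's treat, STAT, IRF and NF-kB factors had 2 higher and 1 lower, numbered zinc finger proteins 6 and 9 and RAB GTPases 2 and 3. With the mean of all probes, orphan and adhesion receptors had 7 higher and 6 lower, TNF receptors 3 and 2 and zinc finger proteins 11 and 12. With the probe of smallest p, zinc finger proteins had 18 higher and 21 lower and Golgi genes 20 and 19. Signals near background limit what can be seen: 8157 of 19057 genes lay there in both groups, and their changes are unknown.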

Other observations

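Probes without a single gene symbol were left out of every count above. Of 10396 such probes 386 were called higher and 566 lower in control adipocytes by the same limma rule, and the largest changes in each direction were log2 changes of 7.13 for ILMN_2835423 and -5.63 for ILMN_2757617.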
